A study of Mus musculus with 4 samples.

Results

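The transcripts of the splicing machinery were examined in an anti-YTHDF2 RNA immunoprecipitation (RIP) of newborn mouse retina. They were chosen from the deposited gene table by symbol alone. The symbols taken were Srsf with a number (SR proteins), all names starting with Hnrnp (hnRNP proteins), Snrp with a letter (Sm and other snRNP proteins), Lsm with a number (LSm proteins), Sf3a or Sf3b with a digit, U2af1 and U2af2 names, and Prpf with a number. Names ending in -ps were left out, which removed 1 gene. This gave 82 of the 52550 genes in the table, namely 11 SR, 21 hnRNP, 13 Sm and snRNP, 11 LSm, 13 SF3 and U2AF, and 13 PRPF genes. The symbols bring in 2 processed pseudogenes, *Snrpert* and *Hnrnpa1l2-ps2*, and 2 overlapping gene records that both carry the name *U2af1l4*. A filter on low counts kept 80 of the 82. *Srsf12*, an SR protein, had 18 and 9 counts in inputs 1 and 2 and 6 and 0 in RIP libraries 1 and 2, and *Hnrnpa1l2-ps2* had 7, 8, 2 and 1, so that neither was tested.

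The libraries were made from retinas of wild type C57BL/6 mice at postnatal day 0, dissociated with papain. In RIP a protein is captured with an antibody and the RNA that stays attached to it is sequenced. Each of 2 biological replicates gave an input library, the RNA before the pulldown, and a RIP library, the RNA recovered with anti-YTHDF2 antibody, which makes 4 libraries in all. No group carried a mutation or a treatment, and a pulldown with control IgG, which the study's methods name, was not analysed here. Whether a replicate pooled several animals was not given in the sources used here. Retina at this age is a mixture of progenitors and young neurons, and in such bulk RNA fewer cells of a type and less RNA per cell cannot be told apart.

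YTHDF2 is a reader of N6-methyladenosine (m6A), the commonest internal mark of mRNA, and is known to speed the decay of the transcripts it binds. Introns are removed by the spliceosome, which is built from small nuclear RNAs wrapped in rings of Sm or LSm proteins (the snRNPs) and from many further proteins. SR proteins bind exons and mostly favour splicing there, whereas hnRNP proteins coat nascent RNA and often oppose it. Many SR and hnRNP genes are known to limit their own expression by splicing in an exon that sends their mRNA to nonsense-mediated decay. Some of the proteins are themselves linked to m6A. HNRNPA2B1 and HNRNPC have been described as proteins that recognise m6A-marked RNA, and SRSF3 and SRSF10 as partners of the nuclear reader YTHDC1.

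m6A lies mostly in a short sequence whose commonest form is GGACT in DNA letters. No m6A was measured in these libraries. To show where this motif falls, 30 bases around a GGACT are printed below for the 2 members called enriched (*Prpf8*, *Srsf1*), for 3 members that had the highest fold change of their family without being called (*Hnrnpa0*, *Lsm11*, *Sf3b2*) and for 2 of the most depleted (*Lsm2*, *Snrpf*). The GGACT shown is the nearest to the stop codon among those whose 30 bases lie within a single exon. The sequences are those of the longest protein-coding transcript in GENCODE M21 (GRCm38), read 5′ to 3′ along the transcript, with GGAC in capitals. The motif lies in the coding sequence of *Prpf8* (exon 24, chr11:75499867-75499896, plus strand) and *Srsf1* (exon 3, chr11:88049056-88049085, plus strand), 3153 and 342 bases before the stop codon. It lies in the 3′ UTR of *Hnrnpa0* (exon 1, chr13:58127241-58127270, minus strand), *Lsm11* (exon 4, chr11:45933435-45933464, minus strand), *Sf3b2* (exon 21, chr19:5274360-5274389, minus strand), *Lsm2* (exon 5, chr17:34985735-34985764, plus strand) and *Snrpf* (exon 4, chr10:93583365-93583394, minus strand), 138, 161, 79, 205 and 82 bases after it.
Prpf8: acaggaactcctGGACttattggtgaagtg
Srsf1: tggaagctggcaGGACttaaaggatcacat
Hnrnpa0: ccccctgaaggtGGACtcggccccacacac
Lsm11: gacaggtcagcaGGACtaaccaggcagaag
Sf3b2: aaagctagatctGGACtccctaggctcgtc
Lsm2: cagaatggtcctGGACtggctcccagtctg
Snrpf: aacttgacttgtGGACtatttaatgcaaag

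Several of the most depleted members encode very small proteins. The whole coding sequences of the 2 lowest, *Snrpf* (261 nt) and *Lsm5* (276 nt), show how short such a coding sequence is. That of *Snrpb2*, also strongly depleted, has 678 nt. The coding exons of *Snrpf* lie within chr10:93583464-93589541 and those of *Lsm5* within chr6:56701257-56704668, both on the minus strand. GGAC is again in capitals, and neither coding sequence holds GGACT.
Snrpf: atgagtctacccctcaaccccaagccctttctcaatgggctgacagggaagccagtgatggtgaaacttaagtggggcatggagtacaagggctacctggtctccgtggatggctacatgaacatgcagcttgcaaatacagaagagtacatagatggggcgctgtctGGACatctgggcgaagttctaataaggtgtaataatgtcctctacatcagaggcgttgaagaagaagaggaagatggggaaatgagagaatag
Lsm5: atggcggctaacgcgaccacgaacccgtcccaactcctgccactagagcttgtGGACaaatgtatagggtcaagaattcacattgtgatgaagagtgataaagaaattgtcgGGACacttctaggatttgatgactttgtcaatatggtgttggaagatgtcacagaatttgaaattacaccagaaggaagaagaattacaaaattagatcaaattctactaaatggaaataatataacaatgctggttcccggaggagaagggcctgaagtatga

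The total counts per library were between 19530226 and 39499994, but 55.0% to 55.5% of them in the inputs and 85.3% to 87.8% in the RIP libraries fell on a pair of overlapping genes at a locus annotated in part as ribosomal RNA. Nuclear protein-coding genes had between 2064465 and 3560122 counts. Counting noise alone would give a chi-square of about 1 per degree of freedom for replicates, and over 6858 genes it was 167 for the inputs and 22.6 for the RIP libraries. The retinal markers were present: all 8 ganglion cell, all 8 progenitor and all 6 amacrine genes and 5 of 6 photoreceptor genes had at least 10 counts in every library, and no lens, pigment epithelium or blood gene did. Ganglion cell markers summed to 48.9 to 62.5 CPM in the inputs and 28.8 to 30.9 CPM in the RIP libraries. The sums were 652 to 984 and 621 to 643 CPM for progenitors, 70.8 to 107 and 54.3 to 59.4 CPM for amacrine cells, and 96.1 to 105 and 127 to 142 CPM for photoreceptor precursors. Markers of endothelium, of which 2 of 5 had at least 10 counts everywhere, summed to 32.3 to 33.4 CPM in the inputs and 65.4 to 67.2 CPM in the RIP libraries, and those of microglia (2 of 5) to 1.54 to 2.85 and 2.85 to 4.20 CPM. Their part in the results was not tested. CPM are counts scaled to a common library size with edgeR's TMM factors, which hold most tested genes near a fold change of 1, so a depleted transcript is low beside other transcripts and no amount of bound RNA is given.

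The splicing transcripts were, on the whole, low in the YTHDF2 RIP. Enriched stands here for a log2 fold change of RIP over input of at least 1 with an unadjusted p below 0.05 in edgeR's quasi-likelihood test, and depleted for -1 or lower with the same p. Of the 80 members tested, 38 were depleted and 2 were enriched, *Prpf8* and *Srsf1*. Among all 13632 genes tested, 2344 (17.2%) were depleted and 1286 (9.43%) enriched. At a Benjamini-Hochberg adjusted p below 0.05 over all genes, 23 members were depleted and 1, *Prpf8*, was enriched, beside 9.78% and 3.48% of all genes. The median log2 fold change was -0.99 over the members and -0.05 over all genes, with 65 members below 0 and 15 above. With no fold minimum, *Hnrnpa0* and *Lsm11* also passed the unadjusted p on the enriched side, which makes 4 members, and DESeq2 called 2 enriched and 37 depleted. Both RIP libraries lay below both inputs for 52 members and above them for 8, and the libraries overlapped for 20. The same held for 31.3% and 29.6% of all genes. Scaled by library size alone, which raised the median of all genes by 0.33 on the log2 scale, 23 members were depleted and 5 enriched. That put 17.9% of the members' calls on the enriched side in place of 5%, while over all genes this share went from 35.4% to 57.7%. The members' median lay 0.94 below that of all genes under either scaling. With 1 RIP library left out, 81 members passed the filter. Their median log2 fold change was -0.93 without RIP replicate 1 and -0.94 without RIP replicate 2, beside -0.02 and -0.03 over all genes. Fewer members were then called depleted than in the main analysis, and so were fewer of all genes. Of the 38, 18 stayed depleted in each of the 4 fits that left out a library. At an adjusted p below 0.05, more members were depleted without either input and far fewer without either RIP library. The shares of all genes at an adjusted p in these fits are not given here.

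**Figure D1:**
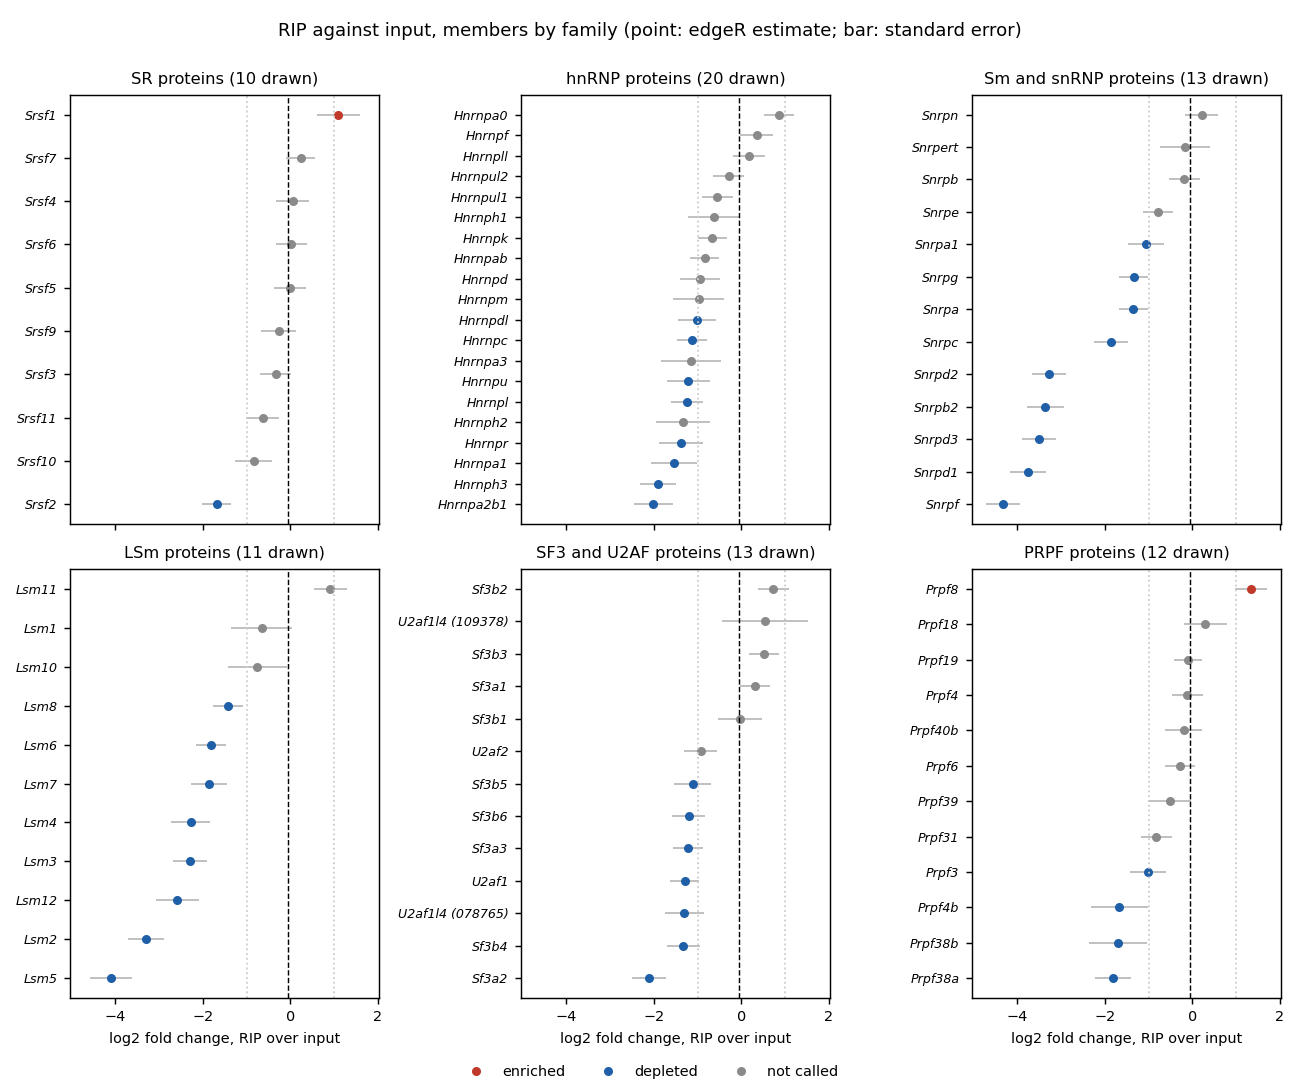
Log2 fold change of RIP over input for 79 of the 80 tested members, by family, with its standard error as a bar. The dashed line is the median of all genes tested (-0.05) and the dotted lines are at -1 and 1. Most Sm, snRNP and LSm points lie left of -1, down to -4.32 for *Snrpf*, whereas the SR points lie around 0, and *Prpf8* (1.34) and *Srsf1* (1.10) are the only ones coloured as enriched.

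The Sm proteins form the ring of 7 subunits that is loaded on most spliceosomal small nuclear RNAs. The transcripts of 5 of the 7 were depleted, all 5 at an adjusted p below 0.05. *Snrpf* (SmF) had 82.5 and 62.4 CPM in inputs 1 and 2 and 3.41 and 3.83 CPM in RIP libraries 1 and 2, and fell by 4.32 ± 0.39 (SE) on the log2 scale (edgeR adjusted p = 0.000927). *Snrpd1* (SmD1) had 57.3 and 56.1 CPM in the inputs and 5.31 and 3.08 CPM in the RIP libraries, and fell by 3.75 ± 0.42 (edgeR adjusted p = 0.00143). Each input of these genes was more than 10 times each of its RIP libraries. *Snrpd3* (SmD3) went from 88.3 and 70.2 CPM to 7.85 and 6.07 CPM, a log2 fold change of -3.51 ± 0.38 (edgeR adjusted p = 0.00136). *Snrpd2* (SmD2) went from 26.9 and 21.3 CPM to 2.02 and 2.91 CPM, a log2 fold change of -3.29 ± 0.39 (edgeR adjusted p = 0.00176). *Snrpg* (SmG) was depleted less, at -1.34 ± 0.34 (edgeR adjusted p = 0.0348). It lost this call without either RIP library, and was at -0.18 and not called once trends on transcript length and GC content over all genes were taken out, while the other 4 kept theirs in each of these fits. The ring was not uniform, since *Snrpe* (SmE) at -0.79 and *Snrpb* (SmB) at -0.18 were not called. *Snrpb* had 6.30 and 5.33 CPM in the inputs and 5.11 and 5.16 CPM in the RIP libraries, which lie just below. Summed over the ring, the level was 248 to 293 CPM in the inputs and 37.8 to 38.3 CPM in the RIP libraries.

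*Snrpn* encodes SmN, a form of SmB made mainly in neurons, from an imprinted gene. It had 10.4 and 6.35 CPM in the inputs and 10.4 and 8.94 CPM in the RIP libraries, which overlap, and its log2 fold change of 0.21 ± 0.38 was the highest of the Snrp names. Its reads are uncertain, because the gene overlaps *Gm38393* and *Snurf* on the same strand, and *Gm38393* alone held 889 counts over the 4 libraries beside 1042 for *Snrpn*. The 4 proteins that belong to U1 or U2 snRNP alone were all encoded by depleted transcripts, and 3 of these had an adjusted p below 0.05. *Snrpb2*, whose protein binds a stem-loop of U2 RNA, had 17.4 and 20.1 CPM in the inputs and 2.30 and 1.33 CPM in the RIP libraries, and fell by 3.36 ± 0.42 (edgeR adjusted p = 0.00207). *Snrpc* and *Snrpa* of U1 and *Snrpa1* of U2 were at -1.86, -1.35 and -1.05. With trends on length and GC content taken out these 3 were at -0.68, -0.85 and -0.27 and not called, and *Snrpb2* alone of the 4 stayed depleted. *Snrpa* and *Snrpa1* also lost their calls without either RIP library. In all, 9 of the 13 Snrp genes were depleted and none was enriched, with a median log2 fold change of -1.35, and the RIP libraries lay below the inputs in 12 of 13. *Snrpert*, the pseudogene, had 30 and 35 counts in the inputs, against 21 and 21 in the RIP libraries and was not called.

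The LSm proteins are relatives of the Sm proteins. LSm2 to LSm8 form the ring on U6 RNA, LSm1 replaces LSm8 in a cytoplasmic ring that takes part in mRNA decay, and LSm10 and LSm11 belong to the U7 snRNP that processes histone mRNA. All 7 transcripts of the LSm2 to LSm8 ring were depleted at an adjusted p below 0.05, and they summed to 91.1 to 106 CPM in the inputs and 20.5 to 22.2 CPM in the RIP libraries. *Lsm5* had 460 and 490 counts in the inputs, against 13 and 27 in the RIP libraries, that is 13.8 and 14.3 CPM against 0.515 and 1.12 CPM, and fell by 4.10 ± 0.47 on the log2 scale (edgeR adjusted p = 0.00162). *Lsm2* had 15.6 and 11.6 CPM in the inputs and 1.55 and 1.21 CPM in the RIP libraries, and fell by 3.30 ± 0.40 (edgeR adjusted p = 0.00201). *Lsm3* and *Lsm4* were both lower by about the same amount, at -2.29 ± 0.40 and -2.28 ± 0.45 (edgeR adjusted p = 0.00823 and 0.0140). *Lsm4* had 13.9 and 7.02 CPM in the inputs and 2.18 and 2.12 CPM in the RIP libraries. The smallest change of the ring was that of *Lsm8* at -1.42 ± 0.35, which was not called without RIP replicate 2. Taking out trends on length and GC content ended the calls of *Lsm3*, then at -0.60, and of *Lsm8*, which turned to 0.27, and *Lsm5* was then at -1.52 and still depleted.

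The other LSm transcripts varied. *Lsm11*, a U7 protein with a long extension, had 2.97 and 2.62 CPM in the inputs and 5.39 and 5.16 CPM in the RIP libraries. Both RIP libraries lay above both inputs, yet its log2 fold change of 0.91 ± 0.37 missed the limit of 1. It was at 0.13 with trends on length and GC content taken out. *Lsm10*, its partner in U7, was at -0.75 ± 0.67 with 0.357 and 0.873 CPM in the RIP libraries, and *Lsm1* at -0.65 ± 0.70. Of *Lsm12*, which is outside these rings, input 1 held 1186 counts and input 2 held 476, but the RIP libraries held 93 and 110. It fell by 2.58 ± 0.49 (edgeR adjusted p = 0.0127). The 11 LSm genes thus had 8 depleted and none enriched, with the lowest median of the families, -1.86.

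**Figure D2:**
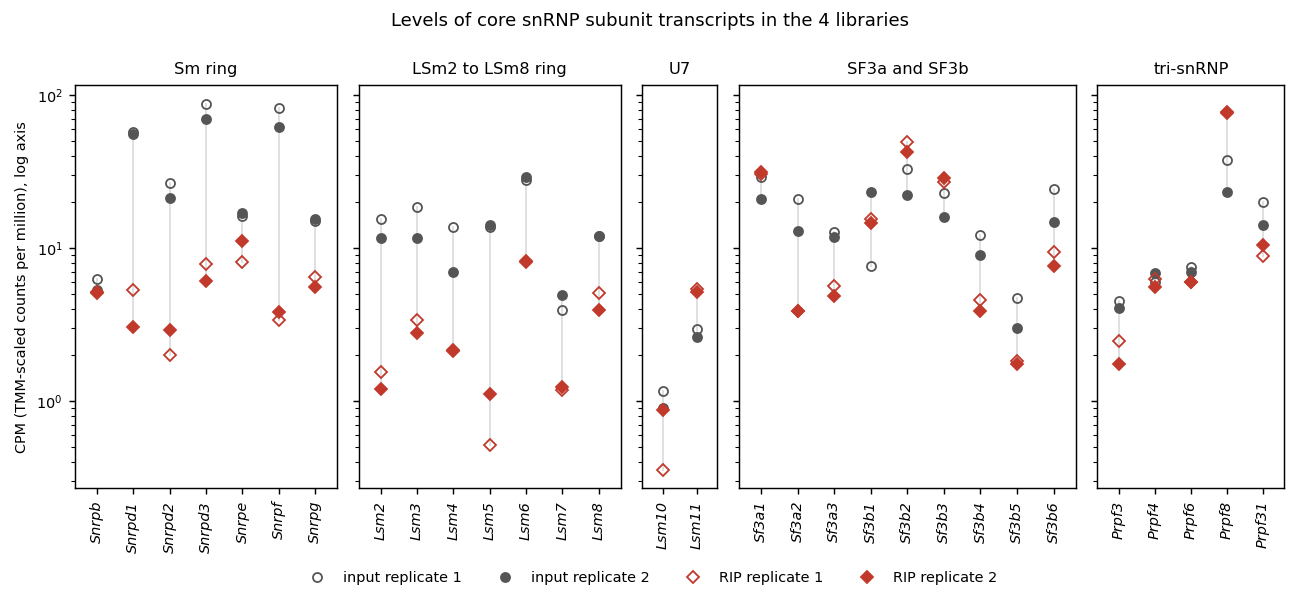
CPM on a log axis in each of the 4 libraries (circles, inputs; diamonds, RIP; open, replicate 1; filled, replicate 2) for subunits of the Sm ring, the LSm2 to LSm8 ring, U7, SF3a and SF3b, and the tri-snRNP. The diamonds lie far below the circles for *Snrpd1*, *Snrpd2*, *Snrpd3*, *Snrpf* and *Lsm5*, close to them for *Snrpb*, and above them for *Lsm11*, *Sf3b2* and *Prpf8*.

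SF3a and SF3b are the complexes that bring U2 snRNP to the branch point, and U2AF reads the 3′ splice site next to it. Here the fold changes differed between subunits of the same complex. *Sf3a2* had 20.9 and 12.9 CPM in the inputs and 3.88 and 3.91 CPM in the RIP libraries, and fell by 2.12 ± 0.39 (edgeR adjusted p = 0.0103), whereas *Sf3a1*, in the same trimer, was at 0.31 ± 0.34. *Sf3b2*, which encodes a large subunit of SF3b, had 32.9 and 22.3 CPM in the inputs and 49.3 and 42.3 CPM in the RIP libraries. Its groups did not overlap, and at 0.73 ± 0.36 it was not called. *Sf3b4* at -1.32 ± 0.37 (edgeR adjusted p = 0.0483) was depleted, as were *Sf3b6* and *Sf3b5* at -1.20 and -1.11 without passing the adjusted limit. *Sf3b1*, the subunit that holds the branch point, had 7.68 CPM in input 1 and 23.3 CPM in input 2, with 15.6 and 14.7 CPM in the RIP libraries in between. As a whole, SF3b summed to 88.7 to 105 CPM in the inputs and 99.2 to 108 CPM in the RIP libraries.

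*U2af1*, the small subunit that reads the AG at the end of the intron, had 23.2 and 20.9 CPM in the inputs and 7.97 and 9.98 CPM in the RIP libraries, and fell by 1.30 ± 0.34 (edgeR adjusted p = 0.0394). It was at -0.35 and not called with trends on length and GC content taken out, and lost its call without either RIP library. Its partner *U2af2* was at -0.93 ± 0.38 and was not called. The 2 records named *U2af1l4* overlap each other on the same strand, so that their reads cannot be told apart, and 1 of them was depleted at -1.30, or -0.06 and not called with those trends taken out. Of the 13 SF3 and U2AF genes, 7 were depleted, 3 of them at an adjusted p below 0.05, and none was enriched, with a median of -1.11. Only *Sf3a2* was depleted in all 4 fits that left out a library.

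*Prpf8* encodes the large protein at the centre of U5 snRNP that holds the catalytic RNA, and its inherited mutations are a known cause of retinitis pigmentosa, as are those of *Prpf3*, *Prpf4*, *Prpf6* and *Prpf31* of the same U4/U6.U5 tri-snRNP. It had 37.6 and 23.5 CPM in inputs 1 and 2 and 78.1 and 76.1 CPM in RIP libraries 1 and 2, so that both RIP libraries were more than 2-fold above each input. It rose by 1.34 ± 0.37 on the log2 scale (edgeR adjusted p = 0.0466). With the replicate number as a block it was at 1.38 with an adjusted p of 0.0514, and with trends on transcript length and GC content taken out it was at 0.48 and not called. None of the other tri-snRNP members was called enriched. *Prpf4* at -0.12, *Prpf6* at -0.28 and *Prpf31* at -0.82 were not called, and *Prpf3* at -1.01 ± 0.40 was depleted by the unadjusted p alone. *Prpf6* overlaps *Zfp512b* on the opposite strand, and whether the counting used strand was not given in the sources used here. The same limit holds for depleted members in other families. Over the 4 libraries *BC024978* held 654 counts beside 1760 for *Snrpa*, *Cox20* 1761 beside 4964 for *Hnrnpu*, and *Psenen* 402 beside 284 for the depleted *U2af1l4* record.

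Further PRPF proteins act at other steps. *Prpf19*, the ubiquitin ligase of the complex that activates the spliceosome, had 34.1 and 32.7 CPM in the inputs and 30.7 and 31.8 CPM in the RIP libraries, a log2 fold change of -0.10 ± 0.32. *Prpf38a*, which joins the spliceosome before its activation, had 4.23 and 3.88 CPM in the inputs and 1.11 and 1.21 CPM in the RIP libraries, and fell by 1.80 ± 0.41 (edgeR adjusted p = 0.0245). Its relative *Prpf38b* and the kinase *Prpf4b* were at -1.70 and -1.67, but both had over 2-fold more in input 2 than in input 1. *Prpf4b* had 4.50 and 22.4 CPM in the inputs and 3.81 and 4.66 CPM in the RIP libraries, and it was the member that was called depleted although its libraries overlapped. Without input replicate 2 its log2 fold change was -0.10 and that of *Prpf38b* was -0.13. In all 5 of 13 PRPF genes were depleted and 1 was enriched, with a median of -0.52.

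Of the 10 SR transcripts tested, 8 were not called. Their median log2 fold change was -0.14, and 1 was depleted and 1 enriched. *Srsf1*, the founding SR protein, had 9.39 and 13.7 CPM in the inputs and 13.8 and 35.8 CPM in the RIP libraries. The call rests on RIP replicate 2, as RIP replicate 1 lay beside input 2. Its log2 fold change was 1.10 ± 0.48 (edgeR adjusted p = 0.168), and it was 0.97 and not called with the replicate block, 0.78 and not called with trends on length and GC content taken out, and not called without input replicate 1 or RIP replicate 2. *Srsf2* (SC35), the classical marker of nuclear speckles, had 29.7 and 30.7 CPM in the inputs and 8.56 and 10.2 CPM in the RIP libraries. The libraries of each group lay close together, and *Srsf2* fell by 1.68 ± 0.34 (edgeR adjusted p = 0.0154), a call that each fit without a library also gave.

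The transcripts of both partners of YTHDC1 were not called. *Srsf3* had 32.2 and 44.8 CPM in the inputs and 29.2 and 31.7 CPM in the RIP libraries, a log2 fold change of -0.34 ± 0.34 that was 0.02 with trends on length and GC content taken out. *Srsf10* had 14.3 and 30.2 CPM in the inputs and 11.2 and 13.7 CPM in the RIP libraries, a log2 fold change of -0.84 ± 0.42. It was depleted at -1.28 without input replicate 1, and was at -0.21 and not called without input replicate 2. *Srsf5*, the SR transcript with the highest input level per length, had 51.8 and 82.0 CPM in the inputs with 65.8 and 67.5 CPM in the RIP libraries in between, and its direction was not set. *Srsf4*, *Srsf6*, *Srsf7*, *Srsf9* and *Srsf11* lay between -0.63 and 0.24.

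**Figure D3:**
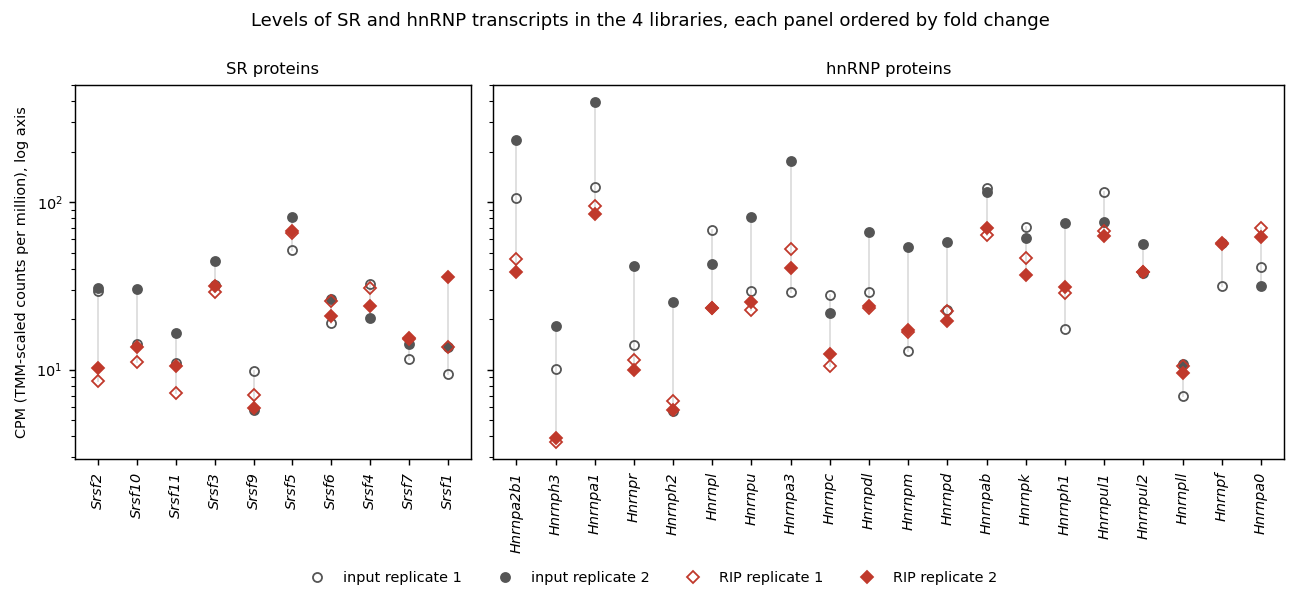
CPM on a log axis in each of the 4 libraries for the tested SR and hnRNP transcripts, each panel ordered from the lowest to the highest fold change (circles, inputs; diamonds, RIP; open, replicate 1; filled, replicate 2). For many hnRNP transcripts the input circles lie far apart, as in *Hnrnpa3* with 29.1 and 176 CPM, while the RIP diamonds lie close together.

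Of the 20 hnRNP transcripts tested, 8 were depleted, 2 of them at an adjusted p below 0.05, and none was enriched, with a median of -0.99. *Hnrnpa2b1*, the described m6A-binding protein, had 106 and 234 CPM in the inputs and 45.9 and 38.2 CPM in the RIP libraries. It fell by 2.02 ± 0.45 (edgeR adjusted p = 0.0220). *Hnrnph3*, which binds runs of G, was at -1.90 ± 0.41 (edgeR adjusted p = 0.0199). It overlaps *Rufy2* on the opposite strand, which held 459 counts over the 4 libraries beside 1151 for *Hnrnph3*. *Hnrnpc*, which binds runs of U, had 27.8 and 21.8 CPM in the inputs and 10.5 and 12.3 CPM in the RIP libraries, a log2 fold change of -1.12 ± 0.34 with an edgeR adjusted p of 0.0655. *Hnrnpa1*, among the best known repressors of splicing, had 124 and 396 CPM in the inputs and 94.9 and 84.8 CPM in the RIP libraries. The RIP libraries lay below both inputs, but the inputs lay so far apart that the log2 fold change of -1.53 ± 0.53 had an adjusted p of 0.0926. Without input replicate 2 it was at -0.47 and not called, and the call was also lost without either RIP library. Of the 8 depleted hnRNP transcripts, *Hnrnpa2b1* and *Hnrnph3* alone kept the call in all 4 fits that left out a library. *Hnrnpa0*, an intronless member of the A/B group, was the highest, with 41.1 and 31.4 CPM in the inputs and 70.0 and 61.9 CPM in the RIP libraries. Both of its RIP libraries were above both inputs, and at 0.86 ± 0.34 it was not called. The remaining hnRNP transcripts lay between -1.38 (*Hnrnpr*) and 0.35 (*Hnrnpf*). Processed pseudogenes of several of these genes, *Hnrnpa1* and *Hnrnpa3* among them, lie elsewhere in the genome, and how reads shared with them were counted was not given in the sources used here.

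The hnRNP fold changes depended on which input they were set against. Input 2 was more than 2-fold above input 1 for 10 of the 20 hnRNP transcripts and for 18 of the 80 members, compared with 17.8% of all genes tested. The median log2 ratio of input 2 to input 1 was 1.005 over the hnRNP transcripts, 0.48 over the SR transcripts and -0.24 over the Snrp genes. The range was widest at *Hnrnpa3*, with 971 counts in input 1 and 6049 in input 2, that is 6.05 times more CPM. Its RIP libraries, with 52.6 and 40.3 CPM, lay between the inputs. The RIP libraries differed by more than 2-fold in 4 members, none of them an hnRNP, against 12.4% of all genes. Set against its own input, the hnRNP median was -0.31 in replicate 1 and -1.37 in replicate 2, while those of the Snrp genes were -1.57 and -1.30 and those of the LSm genes -1.77 and -1.73. Without input replicate 1, 11 hnRNP transcripts were depleted with a median of -1.39. Without input replicate 2, 4 were, with a median of -0.31. Of the 38 depleted members, 8 had such inputs, 5 of them hnRNP. The difference moved with base composition. Across 79 protein-coding members the log2 ratio of input 2 to input 1 had a Spearman rho of -0.55 with the GC content of the transcript, and across 11633 protein-coding genes it was -0.61, points that share their libraries. For the RIP libraries the values were -0.03 and 0.01. The part of base composition in the hnRNP values was not tested beyond the trends described below.

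**Figure D4:**
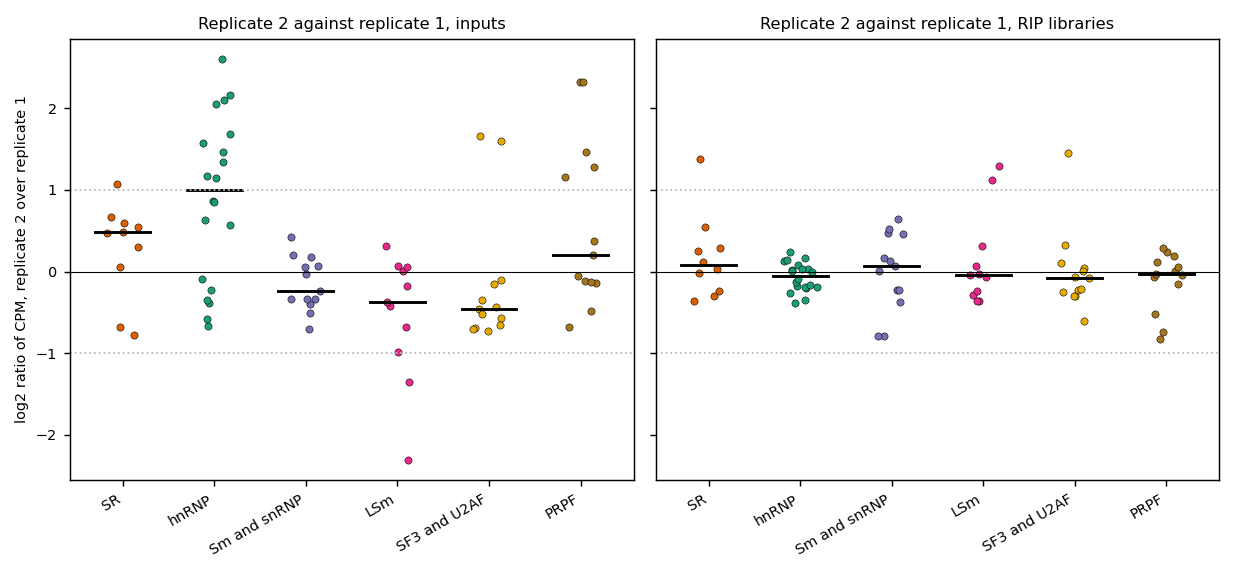
Log2 ratio of CPM in replicate 2 over replicate 1 for each tested member by family, inputs on the left and RIP libraries on the right. Points are genes, black bars are family medians and dotted lines mark a 2-fold difference. The hnRNP inputs spread from -0.67 to 2.60 with a median of 1.005, whereas the median of the hnRNP RIP ratios is -0.05.

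As shares of all counts on nuclear protein-coding genes, the members took 1.90% in input 1, 2.91% in input 2, 1.57% in RIP replicate 1 and 1.54% in RIP replicate 2, with 95% Wilson intervals of 1.88% to 1.91%, 2.89% to 2.93%, 1.55% to 1.58% and 1.53% to 1.56%. The hnRNP genes alone took 0.863% of input 1 (0.853% to 0.873%) and 1.80% of input 2 (1.79% to 1.82%). Their shares in the RIP libraries were 0.827% (0.815% to 0.839%) and 0.784% (0.772% to 0.796%), just below that of input 1. The Snrp genes took 0.351% (0.345% to 0.357%) and 0.337% (0.331% to 0.344%) in the inputs but 0.0768% (0.0732% to 0.0805%) and 0.0789% (0.0751% to 0.0828%) in the RIP libraries. These intervals cover counting error only. The PRPF genes took 0.124% (0.121% to 0.128%) and 0.163% (0.159% to 0.167%) in the inputs. In the RIP libraries their shares were higher, at 0.179% (0.173% to 0.185%) and 0.177% (0.172% to 0.183%). Most of the family did not rise, as 11 of the 13 PRPF genes had a log2 fold change below 0, with a median of -0.52. The CPM of *Prpf8*, the only PRPF gene called enriched, went from 37.6 and 23.5 before the pulldown to 78.1 and 76.1 after it.

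On the deposited FPKM scale, which allows for gene length, the highest members in the inputs were *Hnrnpa1* with 51.9 and 188 FPKM, *Snrpf* with 77.1 and 66.0, *Snrpd1* with 55.1 and 61.1 and *Hnrnpab* with 35.3 and 37.7. The order of *Hnrnpa1* and *Snrpf* differed between the inputs. In the RIP libraries *Hnrnpa1* had 59.1 and 39.4 FPKM, *Hnrnpa0* 31.0 and 20.5 and *Hnrnpab* 27.1 and 22.4, while *Snrpf* had 4.70 and 3.93 and *Snrpd1* 7.56 and 3.24. *Snrpf* and *Snrpd1* thus lay above *Hnrnpa0* in both inputs and below it in both RIP libraries. *Lsm5* had 14.1 and 16.4 FPKM in the inputs, against 0.718 and 1.16 in the RIP libraries. *Prpf8* had 4.06 and 2.87 in the inputs, against 12.5 and 9.09 in the RIP libraries.

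The depleted members tended to be short. The longest annotated protein-coding transcript had a median length of 943 nt in the LSm genes, 1204.5 nt in the protein-coding Snrp genes and 3522 nt in the PRPF genes, compared with 3339 nt in all protein-coding genes tested. Of 20 protein-coding members with a transcript under 1500 nt, 16 (80%) were depleted, and of all 1485 such protein-coding genes 54.1% were. Of the 59 members with longer transcripts, 22 (37.3%) were depleted, compared with 9.1% of 10468 protein-coding genes. *Snrpd3* (3036 nt), *Lsm12* (2256 nt), *Sf3a2* (2213 nt) and *Snrpb2* (2061 nt) were among the longer ones. The longest annotated transcript need not be the form present in these libraries, which was not tested. The coding sequence is 381 nt in *Snrpd3*, and 261 nt in *Sf3b5*, a depleted member with a transcript of 3841 nt. The Spearman rho of log2 fold change with length was 0.47 over 79 protein-coding members and 0.49 over 11953 protein-coding genes, all from the same 4 libraries. Within families it was 0.65 for the 11 LSm and the 13 SF3 and U2AF genes and 0.41 for the 13 PRPF genes. It was 0.16 for the 10 SR, 0.09 for the 20 hnRNP and 0.08 for 12 Snrp genes.

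When smooth trends on transcript length and GC content over all genes were taken out, 33 members were depleted, 27 of them among the 38. Of all genes, 1985 were depleted in place of 2344. The medians were -0.79 over the members and -0.17 over all genes. *Snrpd3* (-3.63), *Snrpb2* (-2.76), *Snrpf* (-2.73), *Snrpd2* (-2.68), *Lsm12* (-2.38), *Sf3a2* (-2.29) and *Snrpd1* (-2.16) were then the lowest members, whereas *Lsm5* and *Lsm2*, which had been among the lowest, were at -1.52 and -1.99. The median of the Snrp genes was then -0.68 with 5 depleted, that of the LSm genes -1.11 with 6, that of the SF3 and U2AF genes -0.32 with 3, and that of the hnRNP transcripts -1.04 with 12. That of the PRPF genes was -0.84 with 6 depleted, and that of the SR transcripts 0.02 with 1. The enriched calls were other genes. *Prpf8* and *Srsf1* were no longer called, and *Snrpe* (1.21) and the pseudogene *Snrpert* (2.48), both very short, were. With the replicate block added to these trends, 29 members were depleted, 8 of them hnRNP transcripts, and 1893 of all genes were.

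**Figure D5:**
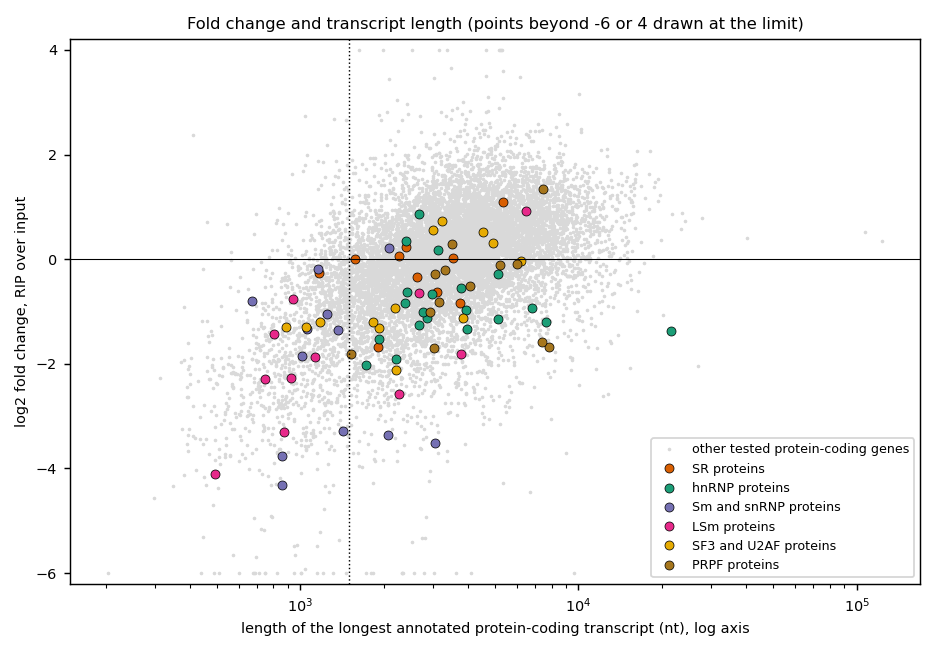
Log2 fold change of RIP over input against the length of the longest annotated protein-coding transcript (nt, log axis) for protein-coding members, coloured by family, over all other tested protein-coding genes in grey. The dotted line is at 1500 nt. The LSm and Snrp points crowd at the short, low end, while *Snrpd3* (3036 nt, -3.51) lies below most genes of its length and *Prpf8* (7442 nt, 1.34) is the highest member.

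GGACT was searched on the sense strand of the longest protein-coding transcript, and each match also counts as a match of GGAC. At least 1 was present in 66 of 79 protein-coding members (83.5%) and in 93.1% of 11953 protein-coding genes. Under 1500 nt it was found in 11 of 20 members (55%) and 71.6% of all, and in longer transcripts in 55 of 59 (93.2%) and 96.1%. By family it was present in 6 of 12 Snrp, 8 of 11 LSm, 9 of 10 SR, 18 of 20 hnRNP, 12 of 13 SF3 and U2AF and 13 of 13 PRPF genes. *Prpf8* held 7 matches, *Srsf1* 5 and *Lsm11* 9, but *Prpf19* held 10 at a log2 fold change of -0.10, and *Snrpd2*, strongly depleted, held 3. *Hnrnpr*, depleted at -1.38, held 18, and *Prpf4* held 13 at -0.12. The median number of GGAC per kilobase was 3.36 in the members and 4.11 in all. The number of GGACT matches had a Spearman rho with log2 fold change of 0.37 in the members and 0.40 in all protein-coding genes. A longer transcript holds more matches of any short motif.

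Transcripts that the annotation marks as subject to nonsense-mediated decay were common in these genes, as 38 of 79 protein-coding members (48.1%) had at least 1, compared with 29.2% of the protein-coding genes tested. They were present in 9 of the 10 SR genes tested, 10 of 20 hnRNP and 7 of 13 PRPF genes, and in 3 of 11 LSm genes. The counts are sums over all transcripts of a gene, so that these files give no value for the decay form alone.

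Other parts of the splicing machinery were read from lists written for comparison. Of 58 further core spliceosome genes, all tested, 22 were depleted and 0 were enriched by edgeR, nor by DESeq2, while 1, *Dhx16* at 0.83, lay above 0 at an unadjusted p below 0.05. Among the depleted, 15 had an adjusted p below 0.05, and the median over the list was -0.85. The lowest was *Syf2*, a protein of the catalytic spliceosome, with 627 and 399 counts in the inputs, against 42 and 42 in the RIP libraries and a log2 fold change of -3.15 ± 0.41. *Snrnp27*, a small tri-snRNP protein, was at -2.85 ± 0.40, and *Zrsr1*, a relative of *U2af1*, at -2.94 ± 0.61, with 64 and 171 counts in the inputs. These 3 had edgeR adjusted p-values of 0.00257, 0.00350 and 0.0177. Regulators outside the member families had medians nearer to that of all genes. Of 24 SR-related proteins and SR kinases, 4 (16.7%) were depleted and 1 enriched, with a median of -0.40, and of 43 regulators of alternative splicing 7 (16.3%) were depleted and 1 enriched, with a median of -0.22. Both shares lie near the 17.2% of all genes that were depleted in the main analysis. With trends on length and GC content taken out, 7 of the 24 and 12 of the 43 were depleted. The depleted among all genes then fell from 2344 to 1985, so the nearness did not hold in that fit.

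The enriched SR-related gene was *Son*, which encodes a very large nuclear speckle protein. It had 507 and 843 counts in the inputs, against 1309 and 1247 in the RIP libraries, and rose by 1.38 ± 0.37 (edgeR adjusted p = 0.0419), or 0.61 and not called with trends on length and GC content taken out. *Pnn*, a speckle protein, had 219 and 987 counts in the inputs, against 76 and 54 in the RIP libraries and fell by 2.75 ± 0.65, and without input replicate 2 by 1.33. *Clk1*, a kinase of SR proteins, fell by 1.74 ± 0.41, and *Srrm1*, a coactivator of splicing, by 1.53 ± 0.35 (edgeR adjusted p = 0.0282 for *Pnn*, 0.0285 for *Clk1* and 0.0256 for *Srrm1*). Neither *Clk1* nor *Srrm1* was called without RIP replicate 2, and *Clk1* was at -0.98 and not called with the trends taken out. Among the regulators *Celf4*, a neuronal RNA-binding protein, was enriched at 1.21 ± 0.45 by the unadjusted p alone (adjusted p = 0.111, edgeR). It was at 0.71 without input replicate 1 and 0.76 with trends on length and GC content taken out, not called in either, nor without either RIP library. *Pcbp2*, which binds runs of C, fell by 2.17 ± 0.44 from 7067 and 3403 counts in the inputs to 937 and 772 in the RIP libraries, and *Elavl3*, a neuronal protein that binds AU-rich RNA, fell by 1.58 ± 0.34 (edgeR adjusted p = 0.0160 and 0.0204). *Taf15*, an RNA-binding protein, was at -2.36 ± 0.70 with an adjusted p of 0.0582, and its inputs held 274 and 1524 counts. Without input replicate 2 it was at -0.69 and not called, and without RIP replicate 2 it was not called either.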

How the data were processed

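RNA from input and anti-YTHDF2 RIP of P0 wild-type retina was sequenced from a stranded library kit, and 2 replicates of each were analysed. The authors deposited counts per gene, unnormalised whole numbers, and FPKM values, scaled for gene length and library size. Per the labels' processing notes, STAR 2.5 and HTSeq were used on GRCm38, and the strand setting of the counting and the tool for FPKM are not given in the sources used here. Columns were matched to libraries by name, and 0 columns were left unused. Of the 52550 identifiers, 52403 were in GENCODE M21 (GRCm38), which gave gene types, transcripts and coordinates.

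A model was fitted to the counts of all genes with edgeR 4.0.16 in R 4.3.3 (filterByExpr with a minimum count of 10 and total of 15, TMM, glmQLFit, glmQLFTest, Benjamini-Hochberg adjustment). Each SE is the size of the log2 fold change divided by the root of F. A two-sided exact permutation test of 2 libraries against 2 cannot give a p under 0.333, so calls lean on the spread shared across genes. The scripts were tested on simulated counts. No set test was run.

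The series design gives each replicate number an input and a RIP library, so equal numbers pair the samples. The differences of replicate 2 from replicate 1 of the inputs, set against those of the RIP libraries, had a Pearson r of -0.0282 over 13632 genes. The model leaves the number out, and an alternative has it as a block. Other alternatives were scaling by library size, by TMM after dropping small noncoding and mitochondrial genes and by size factors, DESeq2 1.42.0, the exact test of edgeR, other count filters, limma 3.58.1 on log2(FPKM + 0.1) and log2(FPKM + 1) at a mean FPKM of at least 0.1, each library left out, no fold minimum, and trends on length and GC content (mgcv 1.9.3, basis size 8).

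Members and lists were chosen with earlier results of these data known. The naming rule took, per family, the highest and lowest fold change at a mean of at least 1 CPM and the highest input FPKM, overall up to 10 genes each way at an adjusted p below 0.05, *Hnrnpa2b1*, *Hnrnpc*, *Srsf3* and *Srsf10*, and up to 3 called genes each way per other list. This named 27 members, and other members were named after their values were seen. The values of 1 member are not reported here singly, and it stays in the counts and medians.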

Additional observations from a re-analysis of the deposited data

How the results depend on the processing

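The members' median stayed below 0 and depleted members outnumbered enriched ones under every alternative run. By setting, members enriched were 2 in the main analysis, 5 by library size, 1 by TMM after dropping small noncoding and mitochondrial genes, 1 by size factors, 5 on log2(FPKM + 0.1), 1 with the replicate block, 4 with no fold minimum, and 1 to 4 with a library left out. Members depleted were 38, and 23 by library size, 24 on log2(FPKM + 0.1), 16 on log2(FPKM + 1) and 18 to 39 with a library left out. At an adjusted p below 0.05, 1 was enriched, 0 with the replicate block, 2 with trends on length and GC content taken out, and 0 to 9 with a library left out, while 23 were depleted, with 2 to 50. The median of -0.99 was -0.67 by library size, -0.62 on log2(FPKM + 0.1), -0.40 on log2(FPKM + 1) and -0.96 to -0.77 with a library left out. Leaving out a library leaves an arm with 1 sample, which the fit takes to vary like the other group, and the counts at an adjusted p varied most there. The causes of the other shifts were not tested.

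With the replicate block 37 of the 38 depleted calls were kept, *Srsf1* lost its call at 0.97, and *Prpf8* missed the adjusted limit at 0.0514. DESeq2 called 2 enriched and 37 depleted. Of the genes the naming rule took, 4 changed sign. *Srsf5* (-0.0043 in the main analysis) was at 0.31 by library size, 0.0035 by size factors and by DESeq2, 0.060 with no filter, 0.30 and 0.28 on the FPKM scales, 0.033 with the replicate block, 0.71 with trends taken out, 0.72 with trends and block, and -0.298 to 0.358 with a library left out. *Srsf3* was at 0.017 with trends and 0.037 with trends and block, *Prpf19* at 0.24 by library size, 0.16 and 0.14 on the FPKM scales, and with a library left out *Prpf19* ranged from -0.132 to 0.028 and *Snrpn* from -0.107 (without input replicate 2) to 0.608. Sign changes of members outside that rule were not all near 0: with trends *Lsm8* went from -1.42 to 0.27 and *Snrpe* from -0.79 to 1.21, without input replicate 2 *Hnrnph2* went from -1.34 to 0.11, *Hnrnpa3* from -1.14 to 0.67, *Hnrnpm* from -0.97 to 0.38 and *Hnrnph1* from -0.63 to 0.77, and without input replicate 1 *Lsm1* went from -0.65 to 0.91. Over all alternatives the depleted genes numbered 9 to 26 in the core spliceosome list (22 in the main analysis), 1 to 9 in the SR-related list (4) and 3 to 12 among the regulators (7), and the enriched ones 0 to 2, 0 to 3 and 0 to 9. Of the values of single named genes in fits with all libraries, 399 kept direction and side of the threshold, 34 lost their call, 8 gained one and 14 changed sign. The total counts were large but few fell on the least expressed members, so that *Srsf12*, *Lsm10* and *Lsm1* say little at this depth.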
